A study of Rattus norvegicus with 10 samples.

Results

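The vitamin D receptor gene (Vdr) and the transforming growth factor β2 gene (Tgfb2) were described across soleus myoblasts of rats kept at different lengths of hindlimb suspension (HS). They were 2 of the 32622 genes in the count table, found by the Ensembl identifiers ENSRNOG00000054420 (Vdr) and ENSRNOG00000002418 (Tgfb2) that the study paired with the symbols. All animals were 3-month-old male Wistar rats without a transgene. The groups were Control (not suspended) and rats unloaded for 1 day (HS1), 3 days (HS3), 7 days (HS7) or 14 days (HS14), with 2 libraries each and 10 in all. The RNA was poly(A) RNA of primary satellite-cell-derived myoblasts, taken from the soleus. The cells were kept in serum-rich medium for some days, pre-plated to remove other adherent cells and grown for a further day. The RNA was thus measured days after the cells had left the muscle. The sources used here did not say if a group's 2 libraries were made from separate animals or cultures. All p-values therefore measured the spread between these libraries, which may be technical.

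Vdr encodes the nuclear receptor for calcitriol, the active form of vitamin D. It binds DNA together with a retinoid X receptor and controls genes of calcium handling, among others. It is known to be scarce in resting adult muscle fibres and easier to detect in myoblasts and regenerating muscle. Tgfb2 encodes a secreted ligand that is stored in the matrix in a latent form and, once released, signals through serine/threonine kinase receptors and Smad proteins. Ligands of this family are known to restrain myoblast differentiation and to raise the expression of matrix genes in connective tissue cells.

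The study had placed both genes among those that differed from Control at HS7, and together in 2 functional terms, calcium ion transport and regulation of apoptosis in development. Every value that involves Control or HS7 is therefore given below as a description with no test. HS3 against HS1, HS14 against HS1 and HS14 against HS3 used neither of the 2 groups and were tested by the quasi-likelihood test of edgeR, and p-values were adjusted by Benjamini-Hochberg over all genes tested. A gene was called at an adjusted p below 0.01. Both genes passed the filter on low counts in all 10 pairwise fits.

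Library totals ran from 20200972 to 28175200 counts, and 15602 to 15960 genes had at least 1 count. Levels are CPM, counts scaled to a common library total, with trimmed mean of M values (TMM) factors between 0.9664 and 1.033. A count of 3 in a library, taken as the floor of detection, was worth 0.106 to 0.149 CPM. Between 69.4% and 72% of the counts from 1 to 20 were even numbers, as when both reads of a pair are counted, so counting intervals are also given with the counts halved. They cover counting error only. Levels of the 2 genes are not compared with each other, because no transcript length was used.

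As a check of the labelled cell type, Myog, a myogenic transcription factor, was present in every library, from 107 CPM in an HS1 library to 882 CPM in an HS7 library. It was the only 1 of 7 fixed myoblast markers with an identifier here. Markers of fibro-adipogenic progenitors and fibroblasts, of which 6 of 7 had an identifier, were also present, with summed levels from 2393 to 2406 CPM in HS1 and from 15431 to 19499 CPM in HS3. The 3 endothelial markers with an identifier (of 5) summed to 0.737 to 9.37 CPM, with Emcn at 0 in both HS1 libraries. The 3 smooth muscle and pericyte markers (of 6) summed to 72.9 to 410 CPM, with Rgs5 at 0 in both Control libraries. Macrophage and cell cycle markers had no identifier here and were not analysed.

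Both genes were highest in HS7, so the 250 bases before the RefSeq start of each are shown (build GRCr8, minus strand, 5′ to 3′). The Vdr window was chr7:130916758-130917007, next to a gene of 51994 bases (chr7:130864764-130916757). The Tgfb2 window was chr13:100792686-100792935, and it lay inside the annotated extent of its gene (chr13:100691540-100793227, 101688 bases). Capitals mark E-boxes (CANNTG, the core that basic helix-loop-helix factors such as Myog recognise) and GC boxes (GGGCGG), searched on both strands.
Vdr: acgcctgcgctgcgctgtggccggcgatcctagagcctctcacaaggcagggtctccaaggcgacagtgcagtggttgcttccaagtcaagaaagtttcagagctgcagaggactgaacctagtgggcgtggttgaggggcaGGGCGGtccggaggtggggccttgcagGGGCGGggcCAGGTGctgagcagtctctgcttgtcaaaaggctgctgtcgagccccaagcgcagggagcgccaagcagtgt
Tgfb2: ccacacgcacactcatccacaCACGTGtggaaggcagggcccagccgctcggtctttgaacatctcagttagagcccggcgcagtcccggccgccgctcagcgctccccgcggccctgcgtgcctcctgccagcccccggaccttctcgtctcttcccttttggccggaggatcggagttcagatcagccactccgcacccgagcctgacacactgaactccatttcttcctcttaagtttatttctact

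The windows differed in what they held. Vdr had an E-box that began at base -72 and GC boxes at -108 and -81, counted from the start site, while Tgfb2 had an E-box at -229 and no GC box. An E-box was present in 65.5% of the 33469 rat promoter windows of this length and a GC box in 30.5%. Both windows were GC-rich, at 63.6% for Vdr and 61.6% for Tgfb2 against a median of 51.2% over all windows, and held 13 and 19 CpG dinucleotides. Of the hexamers that vitamin D response elements pair, AGTTCA had 2 matches in the Tgfb2 window, at -74 and on the other strand at -36, and GGTTCA matched in the Vdr window on the other strand at -136. AGTTCA was in 12.2% of all windows and GGTTCA in 9.77%. AGGTCA (14.1% of all windows), GGGTCA (11.9%), the direct repeat of AGGTCA with a spacer of 3 bases (0.0209%), the Smad box CAGACA (17.2%), TATAAA (12.9%), the AP-1 motif TGANTCA (6.34%) and the cyclic AMP response element TGACGTCA (1.59%) had no match in either window. No matched motif overlapped another. These are matches of letters and not measured binding sites.

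Vdr was near its Control level in HS3, higher in HS1 and highest in HS7. The Control libraries held 7.36 and 6.38 CPM and the HS1 libraries 10.9 and 12.4 CPM. The HS3 libraries fell back to 8.21 and 5.57 CPM, and the HS7 libraries held 33.0 and 34.2 CPM. In HS14 the libraries were at 11.4 and 7.16 CPM. Both HS7 libraries lay above the other 8, as did 14.3% of the 13691 genes kept over all libraries, and the 2 HS7 values were close to each other. Both HS1 libraries lay above the 4 of Control and HS3, as did 22.3% of genes, whereas the first HS14 library lay above those 4 and the second among them.

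As group means, Vdr ran from 6.87 ± 0.697 CPM (SD, n = 2) in Control and 6.89 ± 1.86 in HS3 through 9.27 ± 2.98 in HS14 and 11.7 ± 1.07 in HS1 to 33.6 ± 0.847 in HS7. In that order each pair of neighbours overlapped except HS1 and HS7. The HS7 mean was 4.89 times the Control mean, the HS1 mean 1.70 times and the HS14 mean 1.35 times. In bulk RNA such as this, fewer cells of a type and less RNA per cell cannot be told apart.

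The 2 HS14 libraries of Vdr differed by 0.66 on the log2 scale, a gap exceeded by 7.41% of genes in that group. Their counts were 329 and 170, and the exact 95% Poisson intervals of 10.2 to 12.7 CPM and 6.13 to 8.33 CPM did not meet. With halved counts the intervals were 9.67 to 13.2 and 5.72 to 8.86 CPM. The HS3 libraries differed by 0.56 on the same scale, a gap exceeded by 11.2% of genes. These gaps set how far HS14 and HS3 could be placed against the other groups.

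Tgfb2 stayed close to its Control level in HS1 and HS3, stood highest in HS7 and lay above Control in HS14. The Control libraries held 191.4 and 191.3 CPM and the HS1 libraries 187 and 179 CPM. The HS3 libraries held 222 and 168 CPM, on either side of Control. The HS7 libraries reached 566 and 542 CPM, and the HS14 libraries held 248 and 242 CPM. Both HS7 libraries lay above the other 8, and both HS14 libraries lay above all 6 of Control, HS1 and HS3. The first of these orders was met by 14.3% of the 13691 genes and the second by 17.5%.

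The Tgfb2 group means ran from 183 ± 5.16 CPM (SD, n = 2) in HS1 and 191.3 ± 0.0953 in Control through 195 ± 37.8 in HS3 and 245 ± 4.14 in HS14 to 554 ± 17.4 in HS7. Control and HS3 were the only neighbours in that order whose libraries overlapped. The HS7 mean was 2.90 times the Control mean and the HS14 mean 1.28 times. HS3 had the widest gap between its libraries, 0.40 on the log2 scale, which 17.7% of genes exceeded. The other groups' libraries differed by less than the median gene did.

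**Figure D1:**
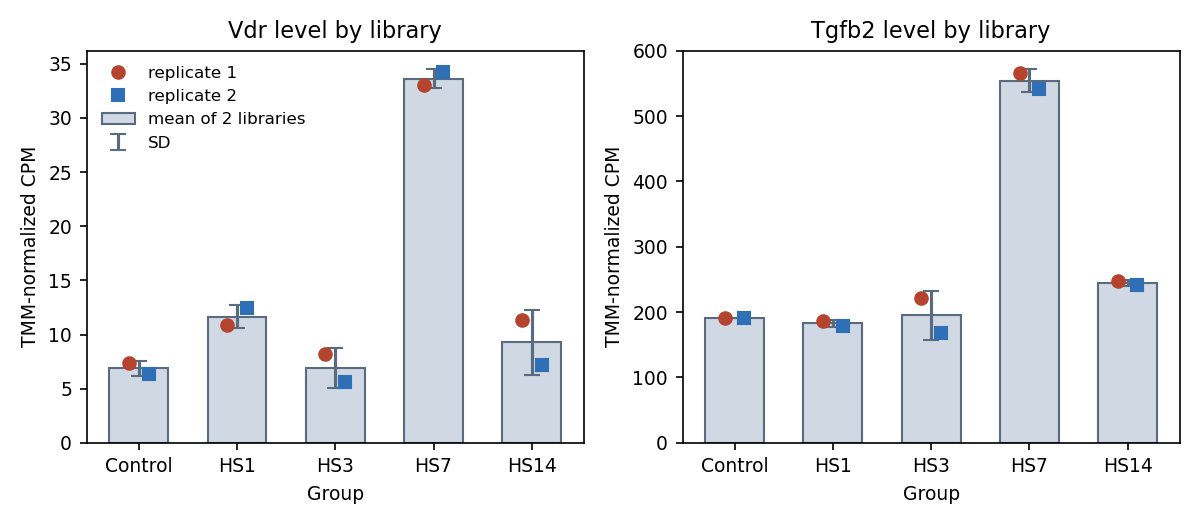
TMM-normalized CPM of Vdr (left) and Tgfb2 (right) in each of the 10 libraries, with bars for the mean of the 2 libraries of a group and error bars for the SD. For both genes the HS7 libraries stand above all others, at 33.0 and 34.2 CPM for Vdr and at 566 and 542 CPM for Tgfb2, and the HS3 pair is spread around Control.

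Between HS1 and HS3, Vdr fell while Tgfb2 gave no call. The log2 fold change of Vdr was -0.76 (SE 0.19, 95% interval -1.16 to -0.37) with an edgeR adjusted p of 0.0019. In this comparison 13.3% of 13008 genes were called lower and 30.5% were called in either direction. The call was lost without the second library of HS1 (log2 fold change -0.66, adjusted p 0.0219) and without the second of HS3 (-0.50, adjusted p 0.0505), each of which leaves a group with 1 library. For Tgfb2 the log2 fold change was 0.10 (SE 0.10, 95% interval -0.12 to 0.31, adjusted p 0.486), and its sign followed the HS3 library that was kept, at 0.29 without the second (adjusted p 0.00272) and -0.11 without the first.

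Between HS1 and HS14, Tgfb2 rose while Vdr gave no call. The log2 fold change of Tgfb2 was 0.39 (SE 0.06, 95% interval 0.28 to 0.51) with an edgeR adjusted p of 2.19e-05. In this comparison 12.0% of 13015 genes were called higher and 24.8% were called in either direction. Both HS14 libraries were above both HS1 libraries, and the log2 fold change stayed between 0.37 and 0.41 whichever library was left out. For Vdr it was -0.34 (SE 0.19, 95% interval -0.73 to 0.05, adjusted p 0.161). Without the first HS14 library, the one at 11.4 CPM, it was -0.73 with an adjusted p of 0.00531.

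HS14 against HS3 gave no call for either gene, in a comparison where 31.9% of 13103 genes were called. The log2 fold change of Tgfb2 was 0.30 (SE 0.11, 95% interval 0.07 to 0.54, edgeR adjusted p 0.0369) and that of Vdr 0.42 (SE 0.23, 95% interval -0.06 to 0.91, adjusted p 0.153). Without the first HS3 library Tgfb2 stood at 0.52 (adjusted p 4.51e-11) and Vdr at 0.72 (adjusted p 0.00308). The Vdr value moved as far with the HS14 libraries, to 0.04 without the first (adjusted p 0.929) and 0.71 without the second (adjusted p 0.0109), and was 0.15 without the second HS3 library. Tgfb2 was also called in 3 of the 6 other fits that left out no library, with log2 fold changes of 0.30 to 0.33.

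As descriptions, the log2 fold changes over Control were 0.76 (SE 0.16) for Vdr and -0.06 (SE 0.05) for Tgfb2 in HS1, and -0.01 (SE 0.21) and 0.03 (SE 0.11) in HS3. They were 2.30 (SE 0.12) for Vdr and 1.54 (SE 0.06) for Tgfb2 in HS7, and 0.44 (SE 0.18) and 0.35 (SE 0.05) in HS14. These comparisons share the Control libraries. Against HS1, the HS7 libraries stood at 1.51 (SE 0.11) for Vdr and 1.58 (SE 0.06) for Tgfb2, and against HS3 at 2.28 (SE 0.17) and 1.49 (SE 0.12). From HS7 to HS14 the values were -1.84 (SE 0.18) for Vdr and -1.17 (SE 0.06) for Tgfb2. Vdr thus lay above Control in HS1 and HS7, with HS3 between them at the Control level, and its HS14 interval ran from 0.08 to 0.80. That HS14 value was 0.06 without the first HS14 library and 0.73 without the second. The Tgfb2 values of HS1 and HS3 both had intervals that held 0.

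**Figure D2:**
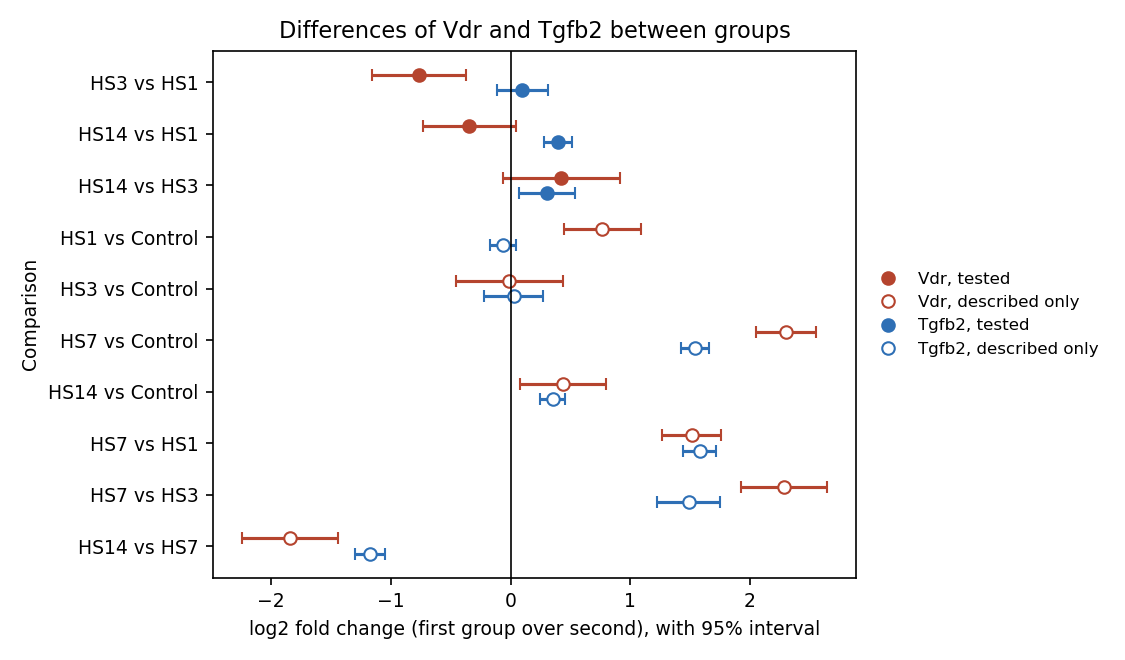
Log2 fold change of the first group over the second (x axis) in the 10 pairwise comparisons (y axis), with 95% intervals, for Vdr in red and Tgfb2 in blue; filled points were tested and open points are descriptions. Only the Vdr point of HS3 against HS1 (-0.76) and the Tgfb2 point of HS14 against HS1 (0.39) were called among the filled points.

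Across the 10 libraries the log2 CPM of Vdr and Tgfb2 had a Pearson r of 0.902, and 77 other genes of 13691 had a higher r with Vdr. Over the 8 libraries without HS7 the r was 0.215. The likeness of the 2 patterns thus rested on the HS7 libraries, which the choice of the genes had used. The points are libraries of the same groups and are not independent of each other.

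Among genes with a symbol, Fstl3 had the pattern most like Vdr, with r = 0.963 over the 10 libraries. It encodes a secreted antagonist of activin and myostatin. Its libraries held 20.7 and 17.4 CPM in Control, 26.0 and 32.3 in HS1, 17.4 and 18.1 for HS3, 68.6 and 61.1 for HS7, and 23.7 and 24.8 in HS14. As for Vdr, its mean was highest in HS7 and next highest in HS1, and without HS7, the group used to choose Vdr, the r was 0.783. The next were Pcdhb12 (a protocadherin, r = 0.937), Msc (musculin, a basic helix-loop-helix repressor of myogenesis, 0.932), Pkia (an inhibitor of protein kinase A, 0.925) and Sim1 (a basic helix-loop-helix transcription factor, 0.912). Most opposed were Mt2A (a metallothionein, r = -0.943), Cnnm1 (-0.921) and Cyp21a1 (a steroid hydroxylase, -0.910). Over the 8 libraries without HS7 the r of the 4 genes after Fstl3 was 0.585 to 0.733 and that of the 3 opposed genes -0.849 to -0.708. Cyp21a1 had at most 1.11 CPM in any library and no count in either HS7 library, which allows up to 0.118 CPM.

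For Tgfb2 the most like genes with a symbol were Nrep (r = 0.978) and the unconventional myosin Myo16 (0.965). Next came Mdga1 (a membrane-anchored cell adhesion protein, 0.961), the serine protease Prss23 (0.959) and the teneurin Tenm4 (0.957). Nrep, known as a neuronal regeneration related protein, held 10.1 and 10.7 CPM in Control, 10.2 and 9.85 in HS1, 13.5 and 12.9 for HS3, 46.5 and 43.0 for HS7 and 17.4 and 17.7 in HS14. Like Tgfb2 it was flat from Control to HS1 and kept an HS14 level above all 6 libraries of Control, HS1 and HS3. That HS14 order was met by 17.5% of genes. Most opposed were Hmga1 (a chromatin protein of proliferating cells, r = -0.966), Tmem106a (-0.956) and LOC688459 (-0.945). Without HS7 the r was 0.820 for Nrep, 0.764 for Myo16, 0.652 for Mdga1, 0.603 for Prss23 and 0.819 for Tenm4, and -0.839, -0.531 and -0.807 for the opposed genes in the same order. Hmga1 was at 238 and 247 CPM in Control, 51.2 and 48.4 for HS7 and 117 and 125 in HS14. Symbols came from the genes that the study called on these libraries, so genes outside that list could not be named. Many of those ranked higher by r. Over all genes kept, Fstl3 ranked 2 and Sim1 53 in likeness to Vdr, and Nrep ranked 8 and Tenm4 41 in likeness to Tgfb2.

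The vitamin D pathway could be followed through 2 of its 36 listed genes, Rxrg and Kl, both of which the study had called on these samples, so their calls are not independent evidence. The partners Rxra and Rxrb, the calcitriol enzymes and the coregulators had no identifier here and were not analysed. Rxrg encodes a retinoid X receptor, a binding partner of the vitamin D receptor. Its libraries held 0.238 and 0.987 CPM in Control, 0.450 and 0.607 in HS1, 2.53 and 2.71 for HS3, 3.93 and 1.74 for HS7 and 0.346 and 0.674 in HS14. It was thus high in HS3, where Vdr was at its Control level, as well as in HS7. Rxrg rose from HS1 to HS3 by a log2 fold change of 2.31 (SE 0.43, edgeR adjusted p 6.11e-05) and from HS3 to HS14 fell by 2.41 on the log2 scale (SE 0.43, adjusted p 5.55e-05).

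Kl encodes klotho, a co-receptor of a phosphate-regulating hormone, and is a known target gene of vitamin D. Its libraries held 0.238 and 0.228 CPM in Control, 1.39 and 1.56 in HS1, 0.101 and 0.398 for HS3, 0.567 and 1.03 for HS7, and 1.73 and 1.10 in HS14. The first HS3 library was below the floor of 0.149 CPM, so the folds against HS3 rest on few counts. Between HS1 and HS3 Kl fell by 2.46 on the log2 scale (SE 0.59, edgeR adjusted p 0.0012) and rose from HS3 to HS14 by 2.39 (SE 0.58, adjusted p 0.00172). From HS1 to HS14 neither gene was called, with log2 fold changes of -0.10 for Rxrg and -0.07 for Kl. Of all genes tested, 30.5% were called in either direction for HS3 against HS1. The share was 24.8% for HS14 against HS1 and 31.9% for HS14 against HS3. The count of 2 calls became 1 for HS3 against HS1 without the second HS1 or the first HS3 library, and for HS14 against HS3 without the first library of either group.

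Of the 59 other genes listed for the TGF-β pathway, 17 had an identifier. The ligands Tgfb1 and Tgfb3 and the receptors Tgfbr1, Tgfbr2 and Tgfbr3 had none and were not analysed here. All 17 had been called by the study against Control in these samples. The counts and p-values below thus describe them and are not independent evidence. The paper's list of genes lower in HS1 than in Control held Fbn1, Fbn2, Lrrc32, Eng, Acvrl1, Smad6, Dcn, Fmod, Tgfbi and Col1a1. HS1 thus took part in the choice of most of the list. From HS1 to HS3, where Tgfb2 had a log2 fold change of 0.10, 16 of 17 were called higher and 1 lower. The median log2 fold change was 2.62, against -0.01 over all genes tested. In that comparison 17.2% of all genes were called higher.

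The largest rise was that of a gene of matrix storage. Fbn2, a fibrillin, rose from 1.80 and 1.78 CPM in HS1 to 33.2 and 43.9 CPM in HS3, a log2 fold change of 4.43 (SE 0.18). Fbn1, the other fibrillin, rose by 3.60 (SE 0.09). Among receptors, Acvrl1, a type I receptor of the family, rose by 3.73 (SE 0.14). Among target genes, Tgfbi, an extracellular matrix protein named for its induction by TGF-β, rose by 3.73 (SE 0.10). Inhbb, an activin subunit, rose by 3.12 (SE 0.57) from 0.246 and 0.174 CPM in HS1, near the floor. Its fold thus rests on few counts. Bgn, a proteoglycan that binds TGF-β, rose by 3.09 (SE 0.09). All 6 changes passed edgeR's test, with adjusted p values of at most 4.14e-05. The paper lists Fbn1, Fbn2, Acvrl1 and Tgfbi among genes lower in HS1 than in Control. HS1 thus took part in their choice, so these p-values are not independent evidence. Fstl3 was the 1 gene of the list that fell, by 0.71 on the log2 scale (SE 0.13, adjusted p 5.4e-05), as Vdr did.

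From HS3 to HS14, 13 of the 17 were called lower and 2 higher. Their median log2 fold change was -2.31, against 0.01 over all genes, of which 18.1% were called lower. Fbn2 fell by 3.63 on the log2 scale (SE 0.17), Fbn1 by 2.88 (SE 0.08) and Col1a1, a chain of type I collagen, by 2.83 (SE 0.10). The 2 that rose were Dcn, the proteoglycan decorin, by 2.50 (SE 0.08) and Fstl3 by 0.42 (SE 0.12). Tgfb2 itself had a positive value in this comparison, 0.30, that missed the threshold.

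From HS1 to HS14, the comparison in which Tgfb2 rose by 0.39, 9 of 16 tested genes were called higher and 1 lower, with a median of 0.61 against 0.00 over all genes, of which 12.0% were called higher and 12.8% lower. Dcn rose by 3.55 on the log2 scale (SE 0.06), Tgfbi by 1.71 (SE 0.09), Itgb6, an integrin subunit that activates latent TGF-β, by 1.07 (SE 0.12) and Acvrl1 by 1.04 (SE 0.19). Ltbp2, a latent TGF-β binding protein family member, fell by 1.26 (SE 0.05). The paper lists Dcn, Tgfbi and Acvrl1 among genes lower in HS1 than in Control. A rise from HS1 was thus favoured by how the list was chosen, and the count of calls is not independent evidence. Dcn held 305 and 236 CPM in HS7 and 439 and 455 CPM in HS14, so that HS14 and not HS7 was its highest group.

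In HS7 over Control, where Tgfb2 stood at 1.54, the list was split, with 7 of 17 genes higher, 10 lower and a median of -0.40. These values are a description with no test. The higher ones with the largest values were Inha (an inhibin subunit, 2.33, SE 0.33), Postn (the matrix protein periostin, 1.92, SE 0.15), Fstl3 (1.78, SE 0.10) and Itgb6 (1.64, SE 0.13). Of the lower ones, Ltbp2 was at -1.32 (SE 0.05) and Tgfbi at -0.95 (SE 0.08). The summed level of the fibroblast marker list, which shares Dcn and Col1a1 with the TGF-β list, was 7341 and 7817 CPM in Control, 2406 and 2393 in HS1, 15431 and 19499 for HS3, 8271 and 8323 for HS7, and 2990 and 2802 in HS14. Col1a1 alone made up 78.9% to 94.4% of this sum in each library. The 4 markers that are not on the TGF-β list (Pdgfra, Lum, Dpt and Thy1) summed to 630 and 645 CPM in Control, 192 and 190 in HS1, 1209 and 1345 for HS3, 251 and 230 for HS7, and 147 and 136 in HS14. Both sums were highest in HS3, but the second was lowest in HS14, and single markers differed, with Dcn highest in HS14 and Lum reaching 14.3 and 11.6 CPM in HS7 against 13.3 and 11.1 CPM in HS3. Both marker sums differed several-fold between HS1 and HS3. Tgfb2 gave no call in that comparison, and the sign of its value followed the HS3 library that was kept. The part of these cells in the results was not tested.

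**Figure D3:**
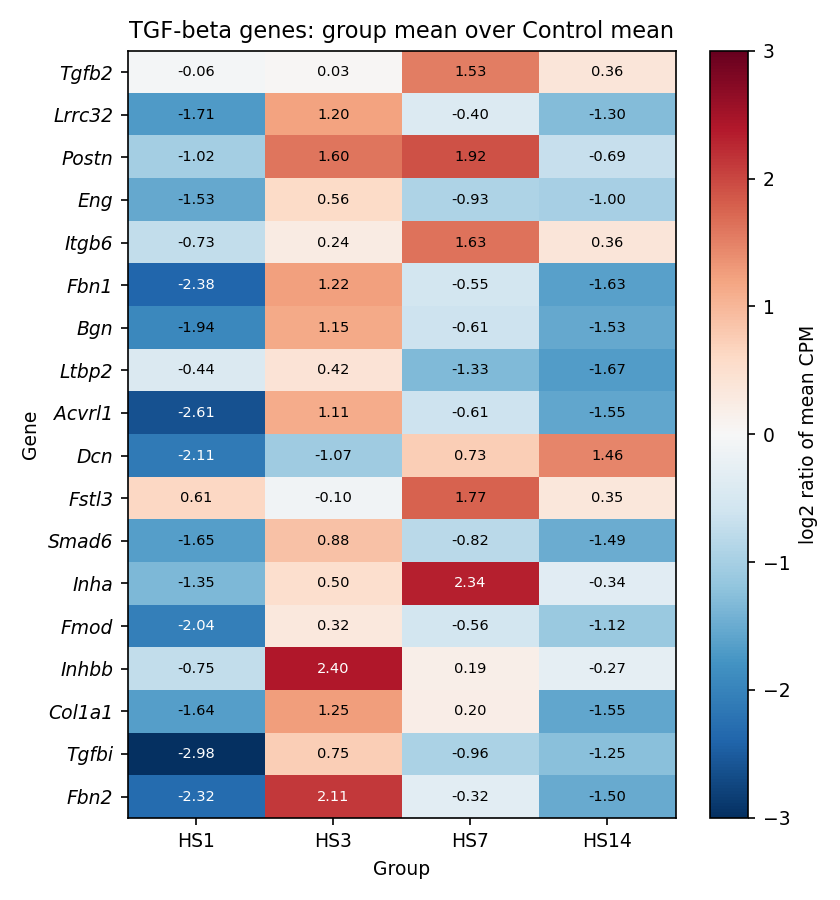
Log2 ratio of each group's mean CPM to the Control mean for Tgfb2 (top) and the 17 genes of the TGF-β list that had an identifier, with red for higher and blue for lower than Control. Most genes of the list are blue in HS1 and HS14 and red in HS3, with Fbn2 at -2.32 in HS1 and 2.11 in HS3, whereas Tgfb2 is near 0 in HS1 and HS3 and at 1.53 in HS7.

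The calcium ion transport term held 17 genes besides Vdr and Tgfb2, chosen by the study on HS7 against Control, so their rise in HS7 is no finding. Their median log2 fold change in HS7 over Control was 2.10. Away from HS7 the values of these genes stood beside those of Vdr and Tgfb2 as follows, with no test of the difference between them. From HS1 to HS3, 11 of 16 tested genes were called higher and none lower (median 1.35), against 17.2% and 13.3% of all genes, where Vdr fell by 0.76 on the log2 scale. From HS3 to HS14, 10 of 17 were called lower and 1 higher, with a median of -1.20, against 18.1% and 13.8% of all genes, where both Vdr and Tgfb2 had positive values. From HS1 to HS14, where Tgfb2 rose, 4 of 16 were called higher and 3 lower, against 12.0% and 12.8% of all genes. These 7 calls became 3 without the first HS14 library and 3 with all 10 libraries in 1 fit.

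Notch1, a receptor of Notch signalling, and Wt1, a zinc finger transcription factor, were the other genes of the developmental apoptosis term, also chosen on HS7 against Control. Notch1 held 7.52 and 6.53 CPM in Control, 9.91 and 6.16 in HS1, 7.40 and 9.87 for HS3, 26.0 and 18.0 for HS7 and 10.3 and 7.42 in HS14. Wt1 held 2.38 and 1.44 CPM in Control, 1.47 and 1.74 in HS1, 1.47 and 1.71 for HS3, 6.31 and 5.93 for HS7 and 2.94 and 2.82 in HS14. Both were highest in HS7, and Wt1, like Tgfb2 and 17.5% of all genes kept, held HS14 levels above those of Control, HS1 and HS3. Neither was called by edgeR in the 3 comparisons without Control and HS7. Wt1 came nearest, at 0.82 for HS14 against HS1 (SE 0.30, adjusted p 0.0405) and 0.83 for HS14 against HS3 (SE 0.32, adjusted p 0.0372).

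The 2 HS7 libraries differed in genes of differentiating muscle. The 7 genes fixed for that state (Myh3, Mymk, Mymx, Acta1, Actc1, Tnnt1 and Tnnt2, which encode contractile proteins and fusion factors) summed to 8338 CPM in the first HS7 library and 4885 CPM in the second. In Control the sums were 1196 and 1253 CPM. All 7 were higher in the first HS7 library (median log2 difference 0.71), and 14 of the 17 calcium term genes were higher there too (median 0.72). The gap was not confined to these genes. Of the 17 TGF-β list genes with an identifier, 15 were higher in that library, with a smaller median of 0.31. Vdr was level between the same libraries, with a log2 difference of -0.05, and Tgfb2 differed by 0.06. With any single library of the comparison left out, the log2 fold change of HS7 over Control stayed between 2.20 and 2.40 for Vdr and between 1.5 and 1.57 for Tgfb2. The summed muscle level of HS3, 2692 and 2880 CPM, was also above Control. For Vdr and for Tgfb2 the HS3 libraries lay on either side of Control. What part the differentiating cells have in the HS7 levels of Vdr and Tgfb2 was not tested.

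**Figure D4:**
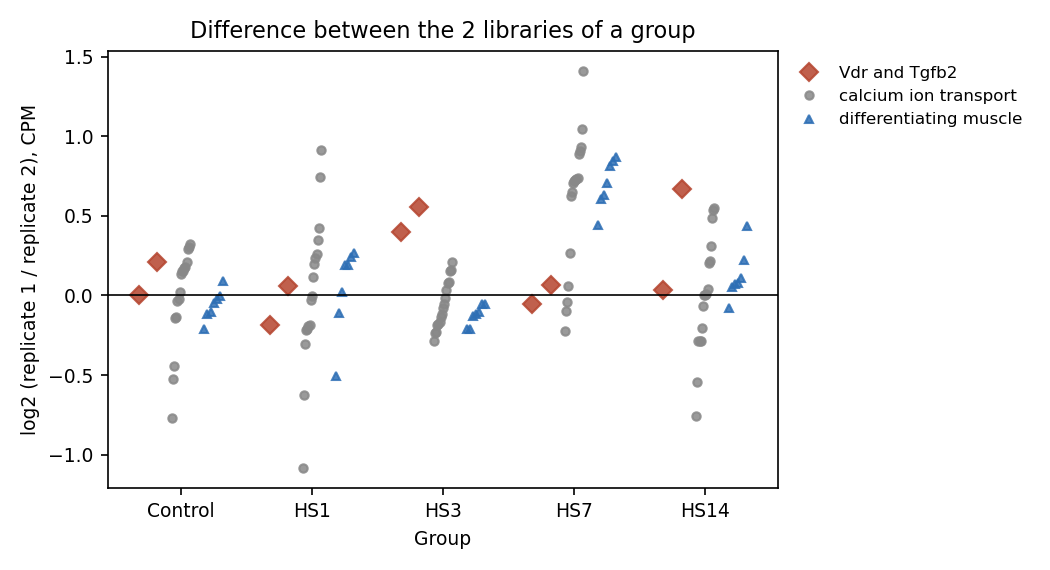
Log2 ratio of the first to the second library of each group (y axis) for Vdr and Tgfb2 (diamonds), the 17 other genes of the calcium ion transport term (circles) and 7 genes of differentiating muscle (triangles). In HS7 the muscle genes sit around 0.71 and most calcium term genes above 0, while Vdr and Tgfb2 lie at -0.05 and 0.06, and the wide gaps of Vdr are those of HS3 (0.56) and HS14 (0.66).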

How the data were processed

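RNA of cultured soleus myoblasts was sequenced after TruSeq Stranded mRNA library preparation. The authors aligned reads with STAR and counted them with featureCounts 1.6.4, and the deposited table holds unnormalized counts per gene. The paper names the mRatBN7.2 genome, whereas the submitters' processing notes name Rnor_6.0 and STAR 2.7. The table carries no coordinates. How read pairs, strand and multi-mapping reads were counted is not given in the sources used here. RefSeq promoter windows belong to GRCr8.

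Groups followed the labels. Each pair of groups was fitted with edgeR 4.0.16 in R 4.3.3 (filterByExpr, TMM, robust quasi-likelihood test, Benjamini-Hochberg), with SE taken as the absolute log2 fold change divided by the square root of F. Likeness was Pearson's r of log2 CPM (prior count 2) over 10 libraries and 13691 genes. Alternatives were DESeq2 1.42.0, other size factors, no filter, halved counts, all libraries in one fit, a replicate block and leaving out each library. On simulated HS3 against HS1 counts (12944 genes, 200 changed), edgeR recovered 200 with 4 false calls and DESeq2 191 with 1. The planted changes were larger than the called changes of Vdr and Tgfb2, and every simulated gene had the same spread beyond counting noise. The simulation therefore cannot show how reliably changes of the size called here are found.

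Symbols came from the 770 identifiers with a symbol (of 817) in the study's table of called genes. Vdr and Tgfb2, the gene lists and the tests were chosen with earlier results of these data known. Named genes were the 2 genes, the list genes called (at most 6 a comparison, by size), the 5 genes most like and 3 most opposed to each, and Notch1 and Wt1. Replicates of a group differed beyond counting noise, with chi-square per degree of freedom from 3.61 to 12.2. These values used the counts without halving, so they would be raised if both reads of a pair were counted. Library totals of 20200972 to 28175200 counts put 3 counts at 0.106 to 0.149 CPM.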

Additional observations from a re-analysis of the deposited data

Results flagged for a closer look

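Tgfb2 lay below Control in both HS1 libraries, with a log2 fold change of -0.0611, and above Control in both HS7 libraries (1.54) and both HS14 libraries (0.351). The contrast with Control thus had opposite signs in HS1 and in each of the longer suspensions. The 95% interval of the HS1 value, -0.17 to 0.05, held 0. For HS14 the difference between the contrasts is HS14 against HS1, in which Tgfb2 was called by edgeR (log2 fold change 0.39, adjusted p 2.19e-05). For HS7 the difference, HS7 against HS1, was 1.58 (SE 0.06) and was not tested, because HS7 had been used to choose the gene.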

How the results depend on the processing

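Over the alternatives that left out no library, all 36 values of the 3 tested comparisons of Vdr and Tgfb2 kept their direction and 33 their side of the threshold. The 3 others were Tgfb2 in HS14 against HS3, which became called with no filter on low counts (0.303, adjusted p 0.00107), with all 10 libraries in 1 fit (0.326, 0.00851) and with the replicate block (0.316, 0.00154). The log2 fold change moved little, and the cause of the change in call was not tested. Of the 84 described values, which have no threshold, 83 kept their direction, and Vdr in HS3 over Control turned from -0.00939 to 0.0034 with DESeq2. The replicate numbers did not pair the libraries (correlations of same-numbered deviations from -0.0165 to 0.0417), and the block changed no other call of the 2 genes. Leaving out 1 library at a time gave log2 fold changes of -1.05 to -0.495 for Vdr in HS3 against HS1 (adjusted p up to 0.0505), -0.727 to -0.0555 in HS14 against HS1 (from 0.00531) and 0.0403 to 0.722 in HS14 against HS3 (from 0.00308). For Tgfb2 the ranges were -0.108 to 0.287 in HS3 against HS1 (from 0.00272), 0.369 to 0.415 in HS14 against HS1 (2.56e-07 to 0.000124) and 0.109 to 0.517 in HS14 against HS3 (from 4.51e-11). Vdr in HS14 over Control ranged from 0.0559 to 0.725, and both genes in HS3 over Control took either sign (-0.303 to 0.266 for Vdr and -0.186 to 0.222 for Tgfb2). These fits assume that the lone library varies like the other group. The call of Vdr in HS3 against HS1 had adjusted p values of 0.000144 to 0.00976 over the edgeR and DESeq2 alternatives that left out no library. That of Tgfb2 in HS14 against HS1 had 3.22e-15 to 0.00257. The replicate block gave the lowest value of both ranges. It left 1 residual degree of freedom, so its p-values carry little weight. List counts moved by over 1.5 times in 15 of 244 values from the other settings and in 27 of 160 that left out a library. Leave-one-out fits of the lists were added after the data were seen. Of the 5 genes most like Vdr, 2 were shared under Spearman's rho and 3 under group means, and for Tgfb2 1 and 2. Depth limits Rxrg, Kl, Inhbb and Cyp21a1, whose levels were within a few counts of the floor in some libraries.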
